A study of Mus musculus with 19 samples.

Results

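A set of 9 genes that neurons use to adjust their synapses to activity were followed in the cerebral cortex of a mouse model of tauopathy. They are Arc, Bdnf and Npas4, the neuronal pentraxins Nptx1, Nptx2 and their receptor Nptxr, and the postsynaptic scaffolds Homer1, Homer2 and Homer3. The 9 genes were chosen by name, and all of them were found among the 55487 genes measured and passed the expression filter that left 19105 genes for testing. The study compared cortex RNA of male P301S/E4 mice aged 41 weeks, which carry a tau transgene with a mutation known from frontotemporal dementia together with the E4 form of apolipoprotein E. Mice of 1 group (10 libraries) were gavaged daily with lemborexant, an antagonist of both orexin receptors that is used against insomnia, at 30 mg/kg from 7.5 to 9.5 months of age. Mice of the other group (9 libraries) received the vehicle, 0.5% methylcellulose, and both groups were dosed at zeitgeber time 13. The labels give neither the promoter of the tau transgene nor the hour of tissue collection, both of which bear on how activity-regulated transcripts can be read. The labels do not tie libraries to single mice, so every p-value rests on the spread between libraries, which may be technical.

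Npas4 and Arc belong to the immediate early genes, whose transcription starts within minutes of synaptic activity. NPAS4 is a neuron-specific transcription factor that drives Bdnf, and BDNF is the neurotrophin that signals through the receptor TrkB. Arc protein removes AMPA-type glutamate receptors from synapses by endocytosis. Neuronal pentraxins do the opposite: NPTX1 and NPTX2 are secreted proteins that gather AMPA receptors, among other places on parvalbumin interneurons, and NPTXR is their membrane-bound partner. Homer proteins tie group I metabotropic glutamate receptors to Shank scaffolds and to calcium channels of the endoplasmic reticulum. The Homer1 gene also makes a short, activity-induced form that breaks these links, and the deposited gene-level values do not separate it from the long forms.

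Transcription of many activity-regulated genes starts when CREB family factors bind the cyclic AMP response element, so the bases before the start sites of these genes were searched for its half-site. The RefSeq promoter table (GRCm38.p6) held 13 start sites for 5 of the 9 genes: 7 for Bdnf, 2 each for Homer1 and Homer2, and 1 each for Npas4 and Homer3. Of these 13 windows of 250 bases, 3 held the half-site TGACG on either strand, against 17.8% of all 32851 windows in the table. The 4 windows printed are the 3 that hold it and that of Homer3, the gene with the clearest difference between the groups, with the half-site on either strand in capitals.
Npas4, minus strand of chr19:4989972-4990221, with half-sites 179 and 169 bases before the start: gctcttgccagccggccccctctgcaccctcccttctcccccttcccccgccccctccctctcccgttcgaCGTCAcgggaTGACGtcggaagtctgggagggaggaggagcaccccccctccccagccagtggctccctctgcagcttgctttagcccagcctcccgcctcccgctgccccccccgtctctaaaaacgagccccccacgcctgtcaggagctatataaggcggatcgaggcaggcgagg
Homer1, plus strand of chr13:93303507-93303756, with half-sites 56, 40 and 14 bases before the start: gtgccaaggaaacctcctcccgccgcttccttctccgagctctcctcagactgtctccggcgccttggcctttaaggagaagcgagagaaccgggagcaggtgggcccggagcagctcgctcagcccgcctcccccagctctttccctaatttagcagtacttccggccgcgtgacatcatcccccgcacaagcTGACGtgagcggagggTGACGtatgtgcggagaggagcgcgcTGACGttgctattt
Bdnf, plus strand of chr2:109692186-109692435, with 1 half-site 35 bases before the start: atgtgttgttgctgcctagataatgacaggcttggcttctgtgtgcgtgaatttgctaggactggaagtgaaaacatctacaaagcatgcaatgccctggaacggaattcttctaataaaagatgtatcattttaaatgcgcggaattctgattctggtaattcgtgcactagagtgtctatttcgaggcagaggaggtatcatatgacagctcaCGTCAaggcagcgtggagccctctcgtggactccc
Homer3, plus strand of chr8:70282749-70282998, with 0 half-sites: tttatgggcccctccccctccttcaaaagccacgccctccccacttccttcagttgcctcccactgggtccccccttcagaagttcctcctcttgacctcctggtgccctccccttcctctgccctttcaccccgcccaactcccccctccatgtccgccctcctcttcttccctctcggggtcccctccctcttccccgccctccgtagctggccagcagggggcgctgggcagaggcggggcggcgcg
At least 2 half-sites, as in the Npas4 window, stood in 3.9% of all windows, and at least 3, as in the Homer1 window, in 0.688%. The whole palindrome TGACGTCA, which contains the half-site on both strands and stood in 1.55% of all windows, was in none of the 13. The TATA box was searched only as TATAAA on either strand (12.4% of windows), which was found in 1 Homer2 window. Other forms, such as the tatataa in the Npas4 window, were not counted. The E-box CACGTG (6.02%) and the CArG box of serum response factor (1.47%) were in none of the 13. These matches describe letters in a window and show no binding.

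Several libraries stood apart and are named beside each result they touch. Library totals ran from 20185098 to 31795633 estimated reads, with 21 to 531 reads of Npas4 and at least 67 of each of the others in every library. Lemborexant libraries 1 and 10, 3 and 8, and 4 and 9 formed pairs that differed from each other far less than the other 168 pairs of libraries (chi-square per degree of freedom 3.08 to 3.66, against 12.2 to 274). The tests by treatment and by the Cst7 classes given below were therefore repeated with the counts of each pair summed, which left 7 lemborexant units and 16 units in all. The interaction of treatment and class was not tested with pairs summed. Cst7, a marker of disease-associated microglia, was at 0 to 0.259 CPM (estimated counts scaled to the same library total) in 4 libraries (lemborexant 1 and 10, vehicle 1 and 4) and at 17.0 to 123 CPM in the other 15. The summed markers of the hippocampus, which lies under the cortex, reached 167 to 269 CPM in vehicle libraries and 53.0 to 185 CPM in lemborexant libraries. All 7 tested thalamus markers and all 13 striatum markers had a positive log2 change after lemborexant (median 0.98 and 0.70), of which edgeR called 2 and 1, or 0 of either with pairs summed. The thalamus markers summed to 63.0 to 115 CPM in vehicle and 88.6 to 333 CPM in lemborexant libraries, and the striatum markers to 166 to 198 and 183 to 533 CPM. Markers of cortical excitatory neurons summed to 215 CPM in lemborexant library 7 and to at least 619 CPM in every vehicle library, and no marker on that list was at 0 in any library. In bulk tissue, fewer cells of a type and less RNA per cell cannot be told apart.

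Per unit of transcript length, Arc had the highest mean level of the 9 transcripts in both groups and Npas4 and Nptx2 the lowest. The deposited TPM values, which are scaled by transcript length so that levels of different genes can be compared, were used here. In vehicle libraries the mean level was 113 ± 29.6 TPM for Arc, 75.2 ± 24.3 for Nptxr and 30.2 ± 10.7 for Nptx1 (SD, n = 9). Bdnf followed at 23.1 ± 3.66 TPM, Homer3 at 19.3 ± 4.69, Homer1 at 18.1 ± 2.76 and Homer2 at 13.3 ± 3.13 (SD, n = 9). Nptx2 at 3.73 ± 0.637 and Npas4 at 3.41 ± 1.41 TPM closed the order (SD, n = 9). Between neighbours in this order the ranges of the 9 libraries overlapped, except between Homer2 and Nptx2. In lemborexant libraries the order was the same down to Bdnf, with Arc at 72.0 ± 50.5 TPM beside Nptxr at 68.6 ± 22.6 (SD, n = 10). That order of Arc and Nptxr held for the means alone: the median was 47.2 TPM for Arc and 76.2 TPM for Nptxr, and Arc was below Nptxr in 5 of the 10 lemborexant libraries and in 1 of the 9 vehicle libraries. There Homer3, at 12.7 ± 4.28 TPM, stood below Homer1, at 18.0 ± 4.94, in place of just above it, and Npas4 (2.88 ± 3.04) stood above Nptx2 (2.84 ± 0.851), each with overlapping ranges (SD, n = 10).

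**Figure D1:**
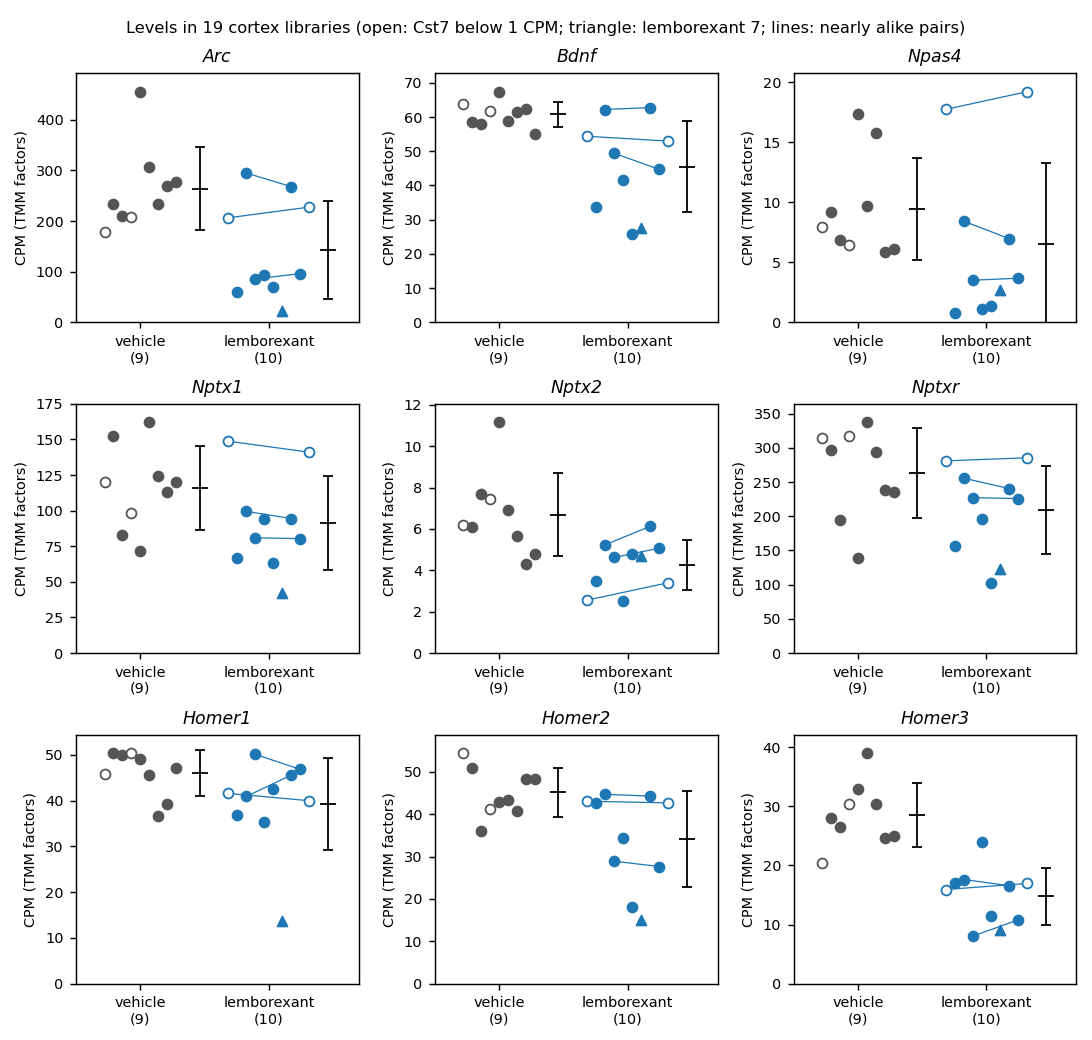
Level of each of the 9 genes (CPM with TMM factors, axis from 0) in the 9 vehicle libraries (grey) and the 10 lemborexant libraries (blue), with mean and SD beside each group (the lower end of the Npas4 bar for lemborexant lies below 0). Open circles are libraries with Cst7 below 1 CPM, the triangle is lemborexant 7 and lines join the 3 nearly alike pairs; Homer3 is at 8.06 to 23.9 CPM in lemborexant and 20.5 to 39.0 CPM in vehicle libraries.

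All 9 genes had a lower mean in lemborexant than in vehicle libraries, and 1 of them, Homer3, passed the test. A gene was called where its p, adjusted by Benjamini and Hochberg over all genes tested, was under 0.05. In edgeR's quasi-likelihood test 2.61% of all 19105 genes were called, and 1.65% were called lower. The median log2 change of the 9 genes was -0.42, against 0.03 over all genes tested, of which 46.4% were lower. A further 4 of the 9 genes, Nptx2, Bdnf, Arc and Homer2, had an unadjusted p under 0.05, as had 25.7% of all genes. With the nearly alike pairs summed, edgeR called 0 of the 9 genes and 0 of 19224 genes, with 7 of the 9 and 21.3% of all genes at an unadjusted p under 0.05. DESeq2 on the same summed counts called 4 of the 9 (Homer3, Bdnf, Nptx2 and Arc) and 912 genes in all. With the hippocampal marker score as a covariate edgeR called 0 genes, 2 of the 9 (Homer3 and Nptx2) having an unadjusted p under 0.05. With the score of cortical excitatory neuron markers as a covariate instead, it called 2 of the 9 (Homer3 and Nptx2) and 4.84% of all genes. The hippocampal score itself differed between the groups, so that fit also takes up part of any difference by treatment.

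**Figure D2:**
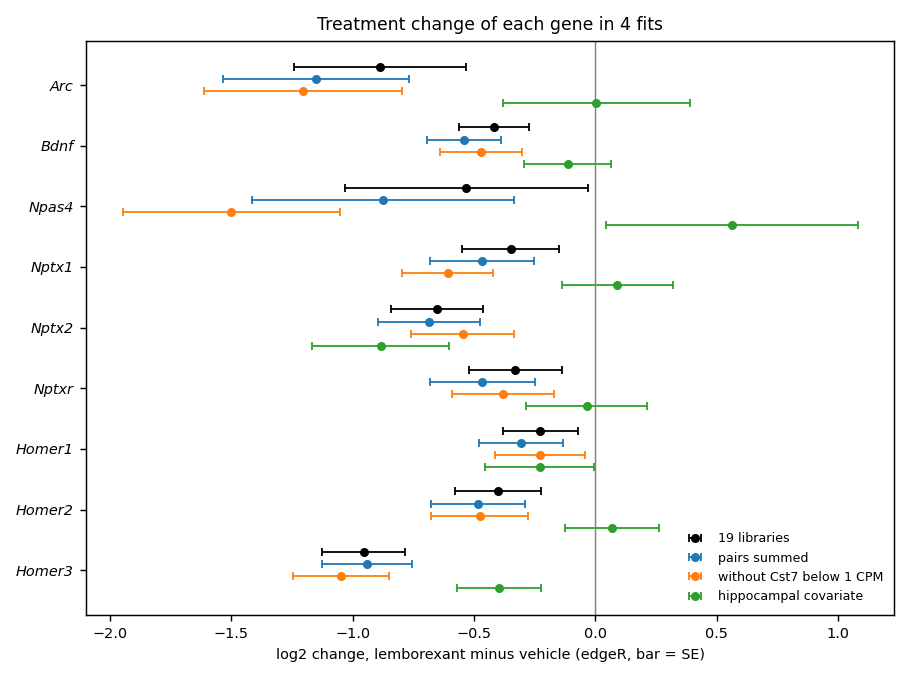
Log2 change of each gene, lemborexant minus vehicle, in edgeR fits of 19 libraries (black), of 16 units with nearly alike pairs summed (blue), without the 4 libraries with Cst7 below 1 CPM (orange) and with the hippocampal marker score as a covariate (green), with bars of 1 SE. In the first 3 fits all 9 points lie below 0, Homer3 at -0.95, -0.94 and -1.05; with the covariate Arc, Npas4, Nptx1 and Homer2 lie at or above 0.

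Homer3, of the scaffold family that links glutamate receptors to calcium stores, differed most clearly. The gene (ENSMUSG00000003573) lies at chr8:70282827-70294361 on the plus strand of GRCm38. Its level was 20.5, 28.0 and 39.0 CPM (lowest, median and highest) in vehicle libraries and 8.06, 16.3 and 23.9 CPM in lemborexant libraries. The groups overlapped through lemborexant 5 alone: the other 9 lemborexant libraries lay below every vehicle library, which held for at least 9 of 10 in 0.523% of the genes tested. The mean of Homer3 fell to 14.8 ± 4.82 CPM (SD, n = 10) after lemborexant, against 28.6 ± 5.41 CPM in vehicle (SD, n = 9), and the log2 change was -0.95 ± 0.17 (SE; adjusted p = 0.0191 in edgeR). Leaving out any 1 of the 19 libraries kept the call (edgeR adjusted p 0.00570 to 0.0450). Where that library belonged to a nearly alike pair, the other of the pair stayed in the fit. The change was -0.94 ± 0.19 with pairs summed (adjusted p = 0.0711 in edgeR), and -1.05 ± 0.20 without the 4 libraries with Cst7 below 1 CPM (adjusted p = 0.0231, with 1 of the 9 genes and 2.71% of all genes called). With the hippocampal score as a covariate it was -0.40 ± 0.17 (adjusted p = 0.465 in edgeR). On log2(TPM + 1), where all genes had a median change of 0.18, Homer3 changed by -0.61 (limma adjusted p = 0.0710).

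Hippocampal markers moved with Homer3 across libraries. All 10 markers on the list had a lower mean in lemborexant libraries, and edgeR called 3 of them, or 0 with pairs summed. Over all genes 46.4% were lower and 1.65% were called lower. The score of the list, the mean of its centred log2 CPM values, was 0.34 to 0.79 in vehicle and -1.46 to 0.41 in lemborexant libraries. Lemborexant 1 and 10, at 0.34 and 0.41, were the lemborexant libraries with a score inside the vehicle range, and they form 1 nearly alike pair. Homer3 stood at 15.9 and 17.0 CPM in these libraries, below every vehicle library, while Arc stood at 206 and 228 CPM, inside the vehicle range. In lemborexant 4, 6, 7 and 9, with the lowest scores (-1.46 to -1.13), Homer3 was at 8.06 to 11.5 CPM, below all other libraries. The part of hippocampal tissue in the difference of Homer3 was not tested beyond the fit with the score as a covariate.

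**Figure D3:**
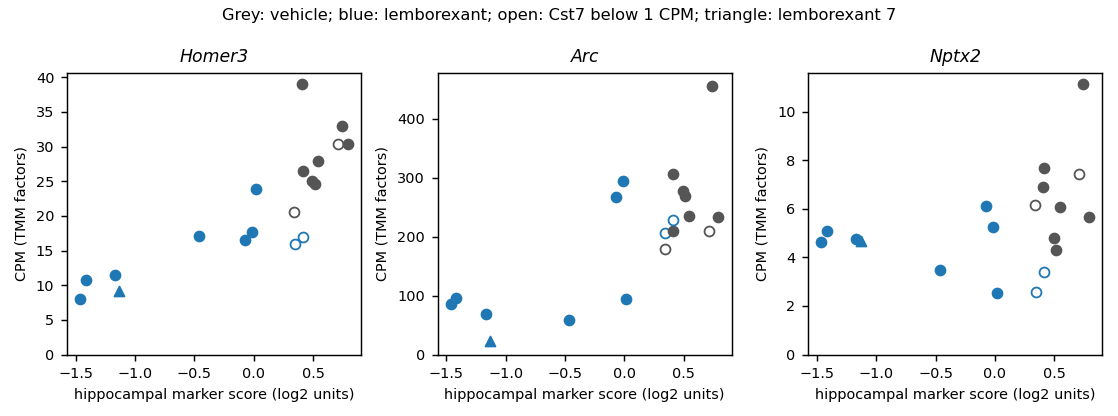
Level of Homer3, Arc and Nptx2 (CPM with TMM factors, axis from 0) against the hippocampal marker score (mean centred log2 CPM of 10 genes) in 9 vehicle (grey) and 10 lemborexant (blue) libraries, with open circles for Cst7 below 1 CPM and a triangle for lemborexant 7. At the 2 lemborexant libraries with scores of 0.34 and 0.41 Homer3 is at 15.9 and 17.0 CPM, under the lowest vehicle library at 20.5 CPM. At the lowest scores, those of lemborexant 4, 6, 7 and 9, Homer3 is at 8.06 to 11.5 CPM.

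The length that the deposited tables give for Homer3 was also shorter after lemborexant. For a gene with several transcripts this column differs between libraries, whereas it was the same in every library for Nptx1 (5217 bases) and Nptx2 (2536 bases), each with 1 annotated transcript, and for Arc (3055 bases). The annotation holds 8 Homer3 transcripts of 583 to 2608 bases. The Homer3 length was 1894, 2064 and 2109 bases (lowest, median and highest) in vehicle libraries and 1653, 1900.5 and 2014 bases in lemborexant libraries, with overlapping ranges. Its mean was 2035 ± 78.0 bases (SD, n = 9) and 1868 ± 125 bases (SD, n = 10), a difference of -167 bases (exact two-sided permutation test, p = 0.00333, or 0.0200 adjusted over the 6 genes whose length varied). With pairs averaged the difference was -141 bases (exact permutation test, adjusted p = 0.0493), although the 2 libraries of the pair of lemborexant 4 and 9 lay at 1653 and 1962 bases. Without the 4 libraries with Cst7 below 1 CPM it was -124 bases (exact permutation test, adjusted p = 0.232). For Bdnf, Npas4, Nptxr, Homer1 and Homer2 the length did not differ past the threshold (exact permutation tests, adjusted p 0.389 to 0.972). Ddx49, a gene on the opposite strand, shares 874 of the 3440 exonic bases of Homer3 (25.4%), and the labels do not say whether reads were counted by strand. Ddx49 itself was at 37.6 ± 4.40 CPM in vehicle and 33.0 ± 3.14 CPM in lemborexant libraries (SD, n = 9 and 10), and its log2 change was -0.19 ± 0.08 (SE; adjusted p = 0.132 in edgeR), and its part in the counts or the length of Homer3 was not tested.

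**Figure D4:**
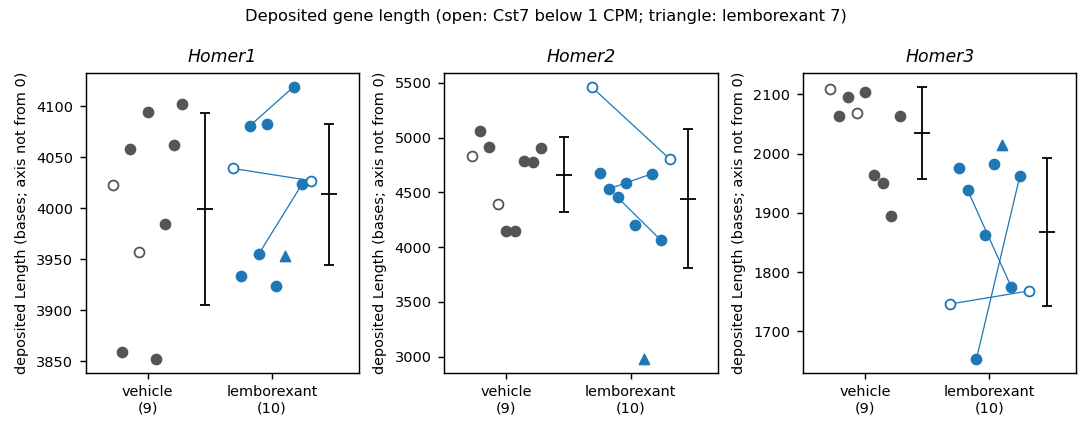
Length in bases that the deposited tables give for Homer1, Homer2 and Homer3 in each library (axes do not start at 0), with mean and SD beside each group, open circles for Cst7 below 1 CPM, a triangle for lemborexant 7 and lines between nearly alike pairs. Homer3 has a mean of 2035 bases in vehicle and 1868 bases in lemborexant libraries, and the Homer2 length of lemborexant 7, at 2977 bases, lies below all others.

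The other Homer genes, Homer2 (ENSMUSG00000025813, chr7:81600481-81707527, minus strand of GRCm38) and Homer1 (ENSMUSG00000007617, chr13:93299635-93405129, plus strand), differed less. Homer2 was at 36.0, 43.4 and 54.5 CPM (lowest, median and highest) in vehicle and at 15.1, 38.6 and 44.7 CPM in lemborexant libraries. Lemborexant libraries 4, 5, 6, 7 and 9 lay below every vehicle library and the other 5 inside the vehicle range (at least 5 of 10 in 9.68% of genes). The log2 change of Homer2 was -0.40 ± 0.18 (SE; adjusted p = 0.160 in edgeR). Homer1 was at 36.7, 47.1 and 50.4 CPM in vehicle and at 13.7, 41.3 and 50.1 CPM in lemborexant libraries, and 8 of the 10 lemborexant libraries lay inside the vehicle range. Its low end was lemborexant 7, the library that was also lowest in cortical excitatory neuron markers, and the next lowest lemborexant library had 35.4 CPM. The log2 change of Homer1 was -0.23 ± 0.15 (SE; adjusted p = 0.357 in edgeR), an interval of 2 SE either side running from -0.54 to 0.08, and it was -0.13 without lemborexant 7. Within the Homer family, Homer3 made up 38.1 ± 4.96% of the summed TPM in vehicle libraries (SD, n = 9) and 29.7 ± 6.58% in lemborexant libraries (SD, n = 10). The share of Homer1 was 35.9 ± 3.52% and 42.3 ± 8.96%, and that of Homer2 26.0 ± 3.46% and 28.0 ± 5.0%, in the same order.

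Among 12 genes for Homer ligands and the metabotropic receptor complex, 11 were lower, against 46.4% of all genes. Of the 12, 1 was called, which was higher, as were 0.953% of all genes. That gene, Dnm3, encodes the dynamin that Homer positions beside the synapse. It rose, with 90.6 ± 18.4 CPM in vehicle and 133 ± 17.1 CPM in lemborexant libraries (SD, n = 9 and 10), by 0.56 ± 0.12 on the log2 scale (SE; adjusted p = 0.0258 in edgeR, or 0.0890 with pairs summed). The part of the higher thalamus and striatum markers in the differences of Dnm3 and of the AMPA receptor gene Gria4 was not tested. The median log2 change of the 12 genes was -0.16, beside 0.03 for all genes. The mGluR5 gene Grm5 was at 139 ± 25.4 CPM in vehicle and 118 ± 34.0 CPM in lemborexant libraries (SD, n = 9 and 10; adjusted p = 0.361 in edgeR).

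Arc, the endocytic effector (ENSMUSG00000022602, chr15:74669083-74672570, minus strand of GRCm38), varied 20.2-fold between its lowest and highest library. It was at 178, 234 and 455 CPM (lowest, median and highest) in vehicle and at 22.6, 95.2 and 295 CPM in lemborexant libraries. Lemborexant libraries 2, 4, 5, 6, 7 and 9 lay below every vehicle library, at 22.6 to 96.2 CPM, and libraries 1, 3, 8 and 10 lay inside the vehicle range, at 206 to 295 CPM (at least 6 of 10 in 5.94% of genes). No lemborexant library lay between 96.2 and 206 CPM. The log2 change of Arc was -0.89 ± 0.35 (SE; adjusted p = 0.128 in edgeR), -1.15 ± 0.38 with pairs summed (adjusted p = 0.133) and 0.00 ± 0.39 with the hippocampal score as a covariate. Of 7 genes for partners of Arc at the spine 0 were called by edgeR. Camk2b, which anchors Arc at inactive synapses, was at 630 ± 65.9 CPM in vehicle and 444 ± 158 CPM in lemborexant libraries (SD, n = 9 and 10; adjusted p = 0.0913 in edgeR).

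Bdnf, the neurotrophin gene (ENSMUSG00000048482, chr2:109674700-109727007, plus strand of GRCm38), was even across vehicle libraries and uneven across lemborexant libraries. Its level was 55.0, 61.4 and 67.4 CPM (lowest, median and highest) in vehicle and 25.8, 47.1 and 62.8 CPM in lemborexant libraries, and its coefficient of variation was 6.07% and 29.2%. The pair of lemborexant 3 and 8, at 62.2 and 62.8 CPM, lay inside the vehicle range, and the other 8 libraries lay below it, which held for at least 8 of 10 in 1.58% of genes. The log2 change of Bdnf was -0.42 ± 0.14 (SE; adjusted p = 0.0915 in edgeR), and -0.54 ± 0.15 with pairs summed (adjusted p = 0.0998). With the hippocampal score as a covariate it was -0.11 ± 0.18. Of 10 genes for the processing and receptors of neurotrophins edgeR called 0. Pcsk1, a convertase of the secretory pathway, was at 16.2 ± 5.96 CPM in vehicle and 29.1 ± 12.5 CPM in lemborexant libraries (SD, n = 9 and 10; adjusted p = 0.0769 in edgeR). Ntrk2, the TrkB gene, was at 433 ± 63.2 and 512 ± 68.5 CPM (SD, n = 9 and 10; adjusted p = 0.148 in edgeR). The antisense gene Gm45346 shares 896 exonic bases with Bdnf but had at most 7.12 estimated reads in any library.

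Npas4, the transcription factor gene (ENSMUSG00000045903, chr19:4984355-4990316, minus strand of GRCm38), spread in both directions after lemborexant. It was at 5.82, 7.94 and 17.3 CPM (lowest, median and highest) in vehicle and at 0.757, 3.59 and 19.2 CPM in lemborexant libraries. Lemborexant 2, 4, 5, 6, 7 and 9, the libraries also lowest in Arc, lay below every vehicle library, at 0.757 to 3.68 CPM (at least 6 of 10 in 5.94% of genes). The pair of lemborexant 1 and 10 lay above every vehicle library, at 17.7 and 19.2 CPM. The log2 change was -0.53 ± 0.50 (SE; adjusted p = 0.515 in edgeR). Without the 4 libraries with Cst7 below 1 CPM it was -1.50 ± 0.45 (adjusted p = 0.0722). The dimerisation partners of NPAS4, Arnt and Arnt2, were not called by edgeR (adjusted p = 0.417 and 0.155).

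Among 17 rapid immediate early genes, to which Npas4 and Arc are related by their speed, 14 were lower, against 46.4% of all genes. Of the 17, 2 were called lower, as were 1.65% of all genes. The orphan nuclear receptor Nr4a3 fell, with a log2 change of -0.91 ± 0.17 (SE; adjusted p = 0.0228 in edgeR), and Egr4, a zinc finger factor, fell to 1.30 ± 0.532 CPM, against 2.91 ± 1.15 CPM in vehicle (SD, n = 10 and 9; adjusted p = 0.0377 in edgeR). With pairs summed their adjusted p was 0.0711 and 0.0834. The median log2 change of the 17 genes was -0.33, beside 0.03 for all genes. Of 12 delayed effector genes edgeR called 0 and 8 were lower, with a median of -0.10. Rheb, a small GTPase upstream of mTOR, had the smallest p, at 156 ± 31.5 and 123 ± 11.9 CPM (SD, n = 9 and 10; adjusted p = 0.0618 in edgeR).

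Among the pentraxins Nptx2, the activity-induced member (ENSMUSG00000059991, chr5:144545902-144557478, plus strand of GRCm38), differed most, and none was called. Nptx2 was at 4.30, 6.18 and 11.2 CPM (lowest, median and highest) in vehicle and at 2.53, 4.65 and 6.13 CPM in lemborexant libraries. The lemborexant libraries 1, 2, 5 and 10 lay below every vehicle library, and the other 6 overlapped with it. At least 5 of 10 lay so low in 9.68% of genes, and the share for at least 4 was not computed. Lemborexant 1, 2, 5 and 10 had hippocampal scores of 0.34, -0.47, 0.02 and 0.41. In lemborexant 4, 6, 7 and 9, with the lowest scores (-1.46 to -1.13), Nptx2 was at 4.62 to 5.07 CPM. The part of hippocampal tissue in the difference of Nptx2 was not tested beyond the fit with the score as a covariate. The log2 change of Nptx2 was -0.65 ± 0.19 (SE; adjusted p = 0.0602 in edgeR), and -0.69 ± 0.21 with pairs summed (adjusted p = 0.114). It was -0.88 ± 0.28 with the hippocampal score as a covariate (adjusted p = 0.465). DESeq2, which called more genes in all than edgeR, called Nptx2 (adjusted p = 0.0203). Among the 19 single-library omissions edgeR called it in 1, without vehicle 8 (adjusted p = 0.0361), the omission with the most genes called, 1274. Over these omissions its edgeR adjusted p ran up to 0.131.

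Nptx1 (ENSMUSG00000025582, chr11:119538719-119547753, minus strand of GRCm38) and the receptor gene Nptxr (ENSMUSG00000022421, chr15:79786351-79804766, minus strand) overlapped more between the groups. Nptx1 was at 71.4, 120 and 162 CPM (lowest, median and highest) in vehicle and at 41.9, 87.7 and 149 CPM in lemborexant libraries. Lemborexant 2, 6 and 7 lay below every vehicle library, and the highest lemborexant values, 141 and 149 CPM, were those of the pair of libraries 1 and 10. Nptxr was at 140, 294 and 337 CPM in vehicle and at 102, 227 and 286 CPM in lemborexant libraries, with lemborexant 6 and 7 below every vehicle library. For both genes the share of all genes with at least as many low libraries was not computed, and at least 5 of 10 held in 9.68% of genes. The log2 change was -0.35 ± 0.20 for Nptx1 (SE; adjusted p = 0.267 in edgeR) and -0.33 ± 0.19 for Nptxr (adjusted p = 0.276), and intervals of 2 SE either side ran from -0.75 to 0.05 and from -0.71 to 0.05. The shares of the family in summed TPM stayed close: Nptxr made up 68.5 ± 3.92% in vehicle and 69.5 ± 3.84% in lemborexant libraries (SD, n = 9 and 10).

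Of the 4 AMPA receptor subunit genes edgeR called 0 by treatment. Gria4, the subunit that pentraxins recruit on interneurons, was at 25.8 ± 6.03 CPM in vehicle and 36.7 ± 6.87 CPM in lemborexant libraries (SD, n = 9 and 10), and its log2 change was 0.51 ± 0.14 (SE; adjusted p = 0.0521 in edgeR). Gria1 was at 708 ± 134 and 526 ± 228 CPM in the same order (adjusted p = 0.217 in edgeR). Adam17, the protease that cuts NPTXR from the membrane, was at 20.1 ± 4.83 and 19.4 ± 5.44 CPM (SD, n = 9 and 10; adjusted p = 0.874 in edgeR). Of the other pentraxin genes Ptx3 and Ptx4 were tested and not called, and Apcs and Crp did not pass the expression filter.

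The 9 genes were also compared between the 15 libraries with Cst7 of at least 1 CPM and the 4 below it, with treatment in the model. These classes come from a measured gene and are not groups of the study, and of the 4 libraries below, lemborexant 1 and 10 are 1 nearly alike pair. In this comparison 19.6% of all genes were called, and 0 of the 9 by edgeR (2 at an unadjusted p under 0.05, a level that 32.5% of all genes reached, 0 called by DESeq2 and 5 by limma's voom with quality weights). With pairs summed edgeR called 10.2% of all genes and 0 of the 9 (0 at an unadjusted p under 0.05, a level that 24.4% of all genes reached). With all 19 libraries and a threshold of 0.1 it called 26.6% of all genes and 1 of the 9, Npas4. Apart from Cst7, which set the classes, all 9 markers of disease-associated microglia were called higher in the 15 libraries, as were all 6 of reactive astrocytes, with median log2 differences of 3.01 and 2.94. The log2 difference was below 0 for 7 of 8 markers of cortical excitatory neurons (median -0.43, 0 called) and for 10 of 10 of the hippocampus (median -0.40, 1 called). Over all genes it was below 0 in 50.3%.

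Npas4 had the largest class difference of the 9, and its values parted by class among the lemborexant libraries. In vehicle 1 and 4, which lacked Cst7, Npas4 was at 7.94 and 6.44 CPM, inside the 5.82 to 17.3 CPM of the other 7 vehicle libraries. In lemborexant 1 and 10 it was at 17.7 and 19.2 CPM, above the 0.757 to 8.42 CPM of the other 8 lemborexant libraries. The log2 difference, at least 1 CPM minus below, was -1.35 ± 0.53 (SE; adjusted p = 0.0804 in edgeR) and -1.15 ± 0.61 with pairs summed (adjusted p = 0.261). It passed the threshold without vehicle 1 (-1.72, edgeR adjusted p = 0.0422) or without vehicle 4 (-1.75, adjusted p = 0.0322). Both fits counted the nearly alike lemborexant 1 and 10 as separate libraries, and neither was repeated with pairs summed. The difference between the treatment changes in the 2 classes was -2.86 ± 0.92 for Npas4 (SE, edgeR interaction, unadjusted p = 0.00598, adjusted p = 0.748), and the adjusted p of the other 8 genes was at least 0.909. Over all genes 5.18% had an unadjusted p under 0.05 in that test, and 0.0105% were called. The interaction was not tested with pairs summed, where lemborexant 1 and 10 form 1 unit.

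Nptxr and Nptx1 were the next largest. Nptxr was at 281 to 317 CPM in the 4 libraries below 1 CPM of Cst7 and at 102 to 337 CPM in the 15 others. In 12 of the 15 Nptxr lay below all 4 (the share of all genes with such a count was not computed). Its log2 difference was -0.46 ± 0.21 (SE; adjusted p = 0.122 in edgeR), and that of Nptx1 was -0.45 ± 0.22 (adjusted p = 0.159). Homer2 (-0.27), Arc (-0.23), Bdnf (-0.19), Homer1 (-0.07) and Homer3 (-0.00) had edgeR adjusted p values of 0.380 to 0.998, and Nptx2 was higher, by 0.27 ± 0.23 (adjusted p = 0.451). For Homer3 an interval of 2 SE either side of the class difference ran from -0.42 to 0.42.

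The pathway lists held 12 tested genes for Homer ligands, 7 for Arc partners, 4 for AMPA receptors, 3 for other pentraxins and the protease. They also held 10 for neurotrophins, 2 for NPAS4 partners, 17 rapid and 12 delayed genes. Of all these list genes edgeR called 19 by class (19.6% of all genes) and 5 with pairs summed (10.2% of all genes). With the cortical excitatory neuron score as a covariate it called 10 list genes and 17% of all genes. The part of the neuronal markers in these differences was not tested beyond that fit and the one with the hippocampal score, which called 5 of them and 11.4% of all genes. Of the 12 Homer ligand genes 6 were called lower in the 15 libraries, against 6.41% of all genes, among them the ryanodine receptors Ryr2 (-0.55 ± 0.13, edgeR adjusted p = 0.00435) and Ryr1 (-1.01 ± 0.27, adjusted p = 0.0121) and Grm5 (-0.53 ± 0.15, adjusted p = 0.0144). The AMPA receptor genes Gria2 (-0.74 ± 0.19, adjusted p = 0.00884), Gria3 (-0.63 ± 0.19, adjusted p = 0.0273) and Gria1 (-0.67 ± 0.21, adjusted p = 0.0303) were called lower as well. With pairs summed edgeR called 1 of the 12 ligands, Ryr2 (adjusted p = 0.0457), and 0 of the 4 AMPA receptor genes. Adam17 was higher, by 0.87 ± 0.12 (adjusted p = 4.99e-05), and Ptx3, an inflammatory pentraxin, by 2.73 ± 0.68 (adjusted p = 0.00777), from 0.0987 to 0.665 CPM.

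Of the neurotrophin genes, Ntrk2 was 0.43 ± 0.09 higher on the log2 scale (SE; adjusted p = 0.00186 in edgeR) and Plat, the plasminogen activator that matures BDNF, 0.44 ± 0.14 higher (adjusted p = 0.0254) in the 15 libraries. Ntf3 and its receptor Ntrk3 were lower, by -1.01 ± 0.29 and -0.41 ± 0.14 (edgeR adjusted p = 0.0174 and 0.0439). Among the partners of Arc, Camk2a and Camk2b were lower, by -0.90 ± 0.28 and -0.51 ± 0.18 (adjusted p = 0.0277 and 0.0479), and the endocytic dynamin Dnm2 was higher, by 0.54 ± 0.10 (adjusted p = 7.02e-04). Of the 12 delayed effector genes Nrn1 was called, lower by -0.65 ± 0.20 (adjusted p = 0.0297). With pairs summed Ntrk2 (adjusted p = 0.0152) and Dnm2 (adjusted p = 0.00382) were still called, and Plat, Ntf3, Ntrk3, Camk2a, Camk2b and Nrn1 were not (edgeR adjusted p 0.0674 for Plat, 0.102 for Ntf3, 0.213 for Ntrk3, 0.107 for Camk2a, 0.171 for Camk2b and 0.0780 for Nrn1). Of the 17 rapid immediate early genes edgeR called 0, with Fos at 0.58 ± 0.22 (adjusted p = 0.0684).

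**Figure D5:**
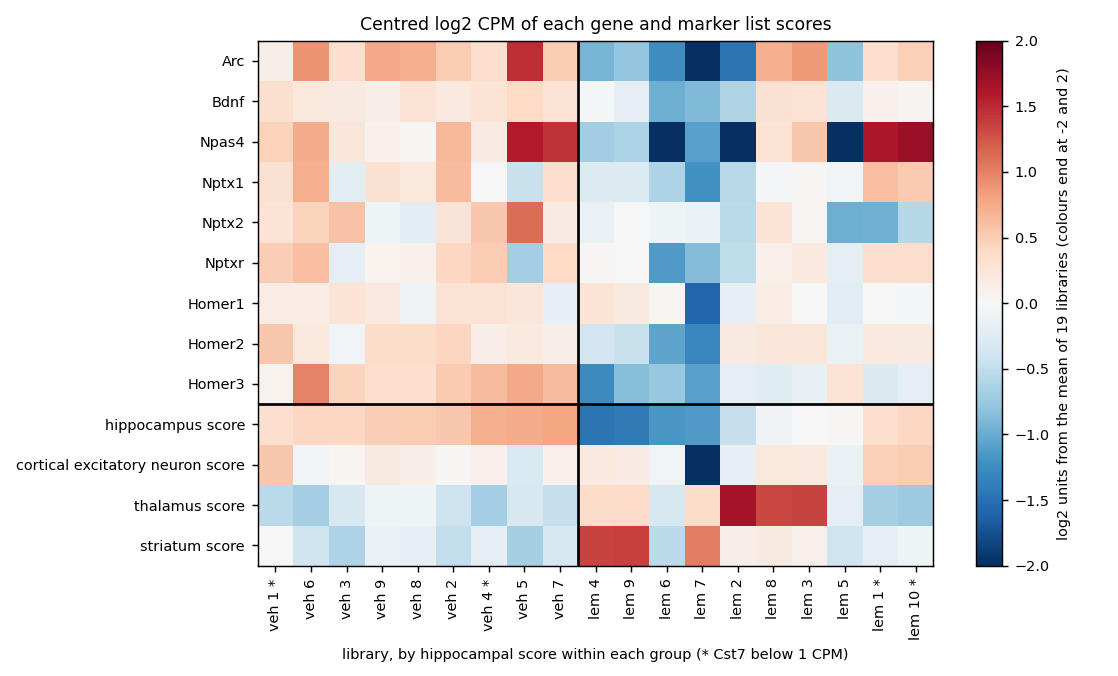
Centred log2 CPM (difference from the mean of 19 libraries, colours end at -2 and 2) of the 9 genes and scores of 4 marker lists, with libraries in columns ordered by hippocampal score within vehicle (veh) and lemborexant (lem), and an asterisk for Cst7 below 1 CPM. Lemborexant 7 is low in most genes and has a cortical excitatory neuron score of -2.08, and Npas4 is highest in lemborexant 10 and 1.

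Across the 16 units the genes fell into patterns that crossed their families. The highest correlations of log2 CPM among the 36 pairs of the 9 genes were those of Arc with Bdnf (Pearson's r = 0.91) and of Nptx1 with Nptxr (0.87). Nptx2 was least like its family, at 0.01 with Nptx1, 0.09 with Nptxr and at most 0.54 with any of the 9, which was with Npas4. Homer1 and Homer3 had an r of 0.50, and Homer2 and Homer3 of 0.71. These values describe 16 units that share treatment, depth and tissue makeup.

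Among 16450 genes at a mean of at least 1 CPM, those most like each of the 9 were found by the same measure over 16 units. For Arc they were Nr4a1 (r = 0.96), itself an immediate early gene, Dnajb5 (0.95) and Dusp6 (0.95). For Bdnf they were Cx3cl1, Bop1 and Prmt8 (0.95 to 0.96), and for Npas4 Gm44126, Clpb and Svop (0.85 to 0.88). Nptx1 was most like the cannabinoid receptor gene Cnr1 (0.94), Enc1 and Gm43519 (0.93 each), Nptx2 like Ppp1r16a, Msl3l2 and Fam104a (0.86 to 0.88), and Nptxr like Actn2 (0.98), Slc25a22 (0.96) and Snap91 (0.95). Homer1 followed the vesicular glutamate transporter gene Slc17a7 (0.95), Kcnh3 and Ephx4 (0.93 each), of which Slc17a7 is on the list of cortical excitatory neuron markers. Lemborexant 7 was lowest in Homer1 and in the score of that list, and the correlations without it were not computed. Homer2 followed Slco2a1, Epha4 and the NMDA receptor gene Grin2a (0.95 to 0.96). Homer3 was most like Cabp7 (0.95), Sec14l2 (0.94) and Iyd (0.94), of which Iyd is on the list of hippocampal markers.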

How the data were processed

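Cortex RNA of 19 libraries was compared between 10 lemborexant and 9 vehicle libraries, grouped by title and treatment label. The submitters' processing notes name bcl2fastq, DRAGEN 3.9.3-8 and the build GRCm38. Which annotation release and strand setting were used, and whether values were filtered, is not given in the sources used here. The series' design text speaks of triplicates, and the labels, which give 10 and 9 libraries, were followed. For each of 55487 genes the deposited tables hold NumReads, TPM and a length, per the file headers. The estimated counts that the authors deposited need not be whole, because reads that several transcripts share are divided among them, and they were rounded before testing. TPM values, as deposited, are scaled by the authors' program to gene length and to the total of the library. The deposited length is used as given; a gene with 1 transcript has the same length in every library, and for others it moves with the transcripts' shares. Gene positions, transcripts and overlaps came from GENCODE's GRCm38 annotation.

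The test was edgeR 4.0.16's robust quasi-likelihood test (R 4.3.3) with TMM factors and edgeR's expression filter, two-sided, adjusted by Benjamini-Hochberg over 19105 genes, with calls under 0.05. Its biological coefficient of variation was 31.9%. CPM are estimated counts scaled to a common library total with TMM factors, a prior count of 2 was added for log2 CPM, and each SE is the size of the log2 change over the square root of F. The Cst7 class (at least 1 CPM on the plain library total) was fitted with treatment in the model, and the interaction in a model with both and their product. Length was tested by exact two-sided permutation over all 92378 splits, or 11440 with pairs averaged. Libraries were compared in pairs by a chi-square over genes whose reads in both together reached 20, and pairs under 10 per degree of freedom were summed in a repeat. Promoter windows came from RefSeq. The count tests were tested on simulated data with known changes. By treatment edgeR recovered 53% of 1.5-fold and 77% of 2-fold changes, and by Cst7 class 30% and 69%. The simulated libraries were independent and held no nearly alike pairs.

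Alternatives were RLE factors, no filter, DESeq2 1.42.0, limma 3.58.1 (voom with quality weights, and log2(TPM + 1) and log2(TPM + 0.1) of genes whose mean reached 1 TPM), pairs summed, the library number range (below or above 1000) as a covariate or taken separately, a hippocampal covariate, a threshold of 0.1, Cst7 limits of 0.5 and 2 CPM and leaving out libraries. Pairs summed without lemborexant 7, a cortical marker covariate, the length without lemborexant 7 and DESeq2 on summed pairs were added after seeing these values. The 9 genes, the gene lists and the alternatives were chosen with earlier results of these data known. The 9 genes are always named; of each pathway list at most 3 called genes per direction with the smallest p are named, or up to 2 with the smallest p where none was called, and for each of the 9 genes the 3 most correlated.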

Additional observations from a re-analysis of the deposited data

Results flagged for a closer look

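Of 30 sets of values checked for a library far from the rest (CPM of the 9 genes and length of the 6 genes whose length varied, each by treatment group), 3 held one by Dixon's 95% limit, which chance exceeds in about 1 in 20 groups. Arc was at 455 CPM in vehicle 5, and the next highest vehicle library had 306 CPM. Nptx2 was at 11.2 CPM in the same library, vehicle 5, and at 7.68 CPM in the next highest. Without vehicle 5 the log2 change by treatment was -0.76 for Arc and -0.53 for Nptx2, in place of -0.89 and -0.65. Homer1 was at 13.7 CPM in lemborexant 7 and at 35.4 CPM or more in the other lemborexant libraries, and that library also had the lowest cortical excitatory neuron score, -2.08, against at least -0.31 in the others. The part of that score in the Homer1 level was not tested. The treatment change of Homer1 without that library was -0.13.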

How the results depend on the processing

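Homer3 kept its direction under every alternative by treatment. It kept its call under all 19 single-library omissions, which leave in the other library of a nearly alike pair. It lost the call in 8 other settings, down to -0.40 with the hippocampal covariate. The counts of all genes, of the 9 and of the pathway list genes called by treatment (498, 1 and 3) became 1825, 2 and 9 with DESeq2, 2217, 4 and 17 with voom, 118, 0 and 0 on log2(TPM + 1), 26, 0 and 0 on log2(TPM + 0.1), 2137, 3 and 10 at a threshold of 0.1, 1130, 2 and 9 with the Cst7 class as a covariate, 925, 2 and 7 with the cortical covariate and 912, 4 and 7 with DESeq2 on summed pairs. They became 8, 0 and 0 in libraries numbered above 1000, 3, 0 and 1 with pairs summed and without lemborexant 7, and 0, 0 and 0 with pairs summed (also without the libraries low in Cst7), with the hippocampal covariate and in libraries numbered below 1000. The gene and list counts became 254 and 2 without a filter, 294 and 2 with the number range as a covariate and 307 and 4 without lemborexant 7 and vehicle 7, and the list count 5 without the libraries low in Cst7. Leaving out 1 library gave 31 (without lemborexant 9) to 1274 genes (without vehicle 8), 1 to 2 of the 9, and 1 to 7 list genes. By treatment the sign turned with the hippocampal covariate for Arc (0.0043), Npas4 (0.56), Nptx1 (0.089) and Homer2 (0.068). In libraries numbered below 1000 (3 against 2) it turned for Npas4 (0.74), Nptx2 (0.10), Nptxr (0.091) and Homer1 (0.036). The cause of these turns was not tested. Each of those 3 lemborexant libraries (8, 9 and 10) forms a nearly alike pair with 1 numbered above 1000 (3, 4 and 1), so the number ranges are not separate sets. On the TPM scales the median over all genes was 0.18 and 0.20, in place of 0.03.

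By Cst7 class, the counts of all genes and list genes (3751 and 19) became 9049 and 34 with voom (5 of the 9 called), 2252 and 4 on log2(TPM + 1), 2274 and 4 on log2(TPM + 0.1), 1967 and 5 with pairs summed, 2180 and 5 with the hippocampal covariate, 1769 and 5 above number 1000 and 2373 and 9 with pairs summed and without lemborexant 7; the list count was 10 with the cortical covariate and 11 without treatment in the model, and at a threshold of 0.1 the test of all 19 libraries called 1 of the 9. Leaving out 1 library gave 1984 to 4156 genes, 0 to 1 of the 9 and 5 to 21 list genes. The sign of Homer3, near 0, turned with pairs summed (0.067), without lemborexant 7 and vehicle 7 (0.035), with the hippocampal (0.34) or cortical covariate (0.10), without treatment (0.033), above number 1000 (0.13) and without lemborexant 7 with pairs summed (0.11), and ran from -0.14 to 0.078 over single-library omissions. That of Homer1 turned with voom (0.043), without both libraries 7 (0.013) and with the cortical covariate (0.23), and that of Arc with the hippocampal (0.38) and cortical covariates (0.30). Limits of 0.5 and 2 CPM of Cst7 gave the same classes. The length difference became -124 bases for Homer3 and 10.1 bases for Npas4 without the libraries low in Cst7, and -0.778 bases for Nptxr without lemborexant 7. No paired analysis was possible because the labels give library numbers and no replicate number shared between the groups. Npas4 had as few as 21 reads in a library, and the other genes had at least 67.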
